A study of Mus musculus with 8 samples.

Results

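Binding of the transcription factor C/EBPα was examined at 6 genes that encode ETS transcription factors, namely Erg, Fli1, Etv6, Ets1, Ets2 and Elf1. The genes were chosen by name, with earlier results of these data known. A binding region belonged to a gene when it lay inside the gene body or within 50 kb of either end (mm10). Among 259446 regions called in any library, 333 met this rule (0.128%), and the 6 genes stood among 21887 protein-coding genes. The assay was CUT&RUN, which cuts free the DNA around a protein with a nuclease guided by an antibody. It was applied to sorted mouse bone marrow cells that were Lin-, KIThi-int and FLT3+. The genotypes DC, DE and WT are those of the Zeb2 -165 kb enhancer. What the letters DC and DE stand for was not given in the sources used here, nor were strain, age or any treatment. DC, DE and WT had 2 libraries apiece with the C/EBPα antibody, replicate 1 from labelled batch 1 and replicate 2 from batch 2. No label ties replicates to separate animals, so the p-values measure the spread between these libraries, which may be technical. Values given as a pair are replicate 1 and then replicate 2.

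C/EBPα is a leucine zipper factor that starts granulocyte and monocyte differentiation in bone marrow progenitors. ETS factors share a DNA-binding domain that reads a GGAA core. ERG and FLI1 maintain blood stem and progenitor cells together with GATA2, TAL1, LYL1, LMO2 and RUNX1. ETV6 is a repressor needed by stem cells in adult marrow, ETS1 acts mainly in lymphoid cells, ETS2 is a target of RAS and MAP kinase signalling, and ELF1 regulates lymphoid and endothelial genes. Binding near a gene is not a measure of its expression, so the labelled cell type could not be checked from these data. Regions called in both libraries of a genotype lay within 50 kb of 75.8% of protein-coding genes in DC, 74.3% in DE and 73.5% in WT, so having such a region is common. In each genotype all 6 of a list of myeloid genes (Csf3r, Cebpe, Elane, Mpo, Spi1 and Fes) and both sort genes, Kit and Flt3, had one. Of 5 genes of other tissues (Alb, Ttr, Ins2, Myh6 and Neurod1), 4 had one in DC, 4 in DE and 3 in WT. Within 10 kb, 60.7% of protein-coding genes had one in DC, 58.0% in DE and 56.7% in WT, as did all 6 myeloid genes and both sort genes, and none of the 5 genes of other tissues.

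Occupancy of the gene starts differed among the genes, and 3 starts are shown. Those of Etv6 and Elf1 are the ones with the most bases under a called region, and that of Erg lay under none. RefSeq promoters (GRCm38.p6) were found for Etv6, Elf1, Erg and Ets2, with 7 starts in all. The 250 bases before a start are printed. In the first and second sequence, capitals mark bases inside a called region. In the last, capitals mark a match to TTGCNNAA, a short form of the C/EBP motif.
Etv6, chr6:134035450-134035699, plus strand: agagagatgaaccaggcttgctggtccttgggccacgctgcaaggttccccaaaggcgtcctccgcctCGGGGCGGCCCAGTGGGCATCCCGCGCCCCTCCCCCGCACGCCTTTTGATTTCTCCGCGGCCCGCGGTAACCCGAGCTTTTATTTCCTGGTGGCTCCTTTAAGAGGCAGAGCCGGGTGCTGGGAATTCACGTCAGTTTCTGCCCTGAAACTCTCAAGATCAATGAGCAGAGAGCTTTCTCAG
Elf1, second annotated start, chr14:79515424-79515673, plus strand: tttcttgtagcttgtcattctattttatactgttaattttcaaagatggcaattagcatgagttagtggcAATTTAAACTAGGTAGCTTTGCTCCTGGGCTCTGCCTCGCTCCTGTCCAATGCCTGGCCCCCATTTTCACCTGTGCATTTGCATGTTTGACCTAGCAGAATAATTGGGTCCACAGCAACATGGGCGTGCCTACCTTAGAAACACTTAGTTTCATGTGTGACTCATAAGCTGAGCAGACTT
Erg, uppermost start, chr16:95586594-95586843, minus strand: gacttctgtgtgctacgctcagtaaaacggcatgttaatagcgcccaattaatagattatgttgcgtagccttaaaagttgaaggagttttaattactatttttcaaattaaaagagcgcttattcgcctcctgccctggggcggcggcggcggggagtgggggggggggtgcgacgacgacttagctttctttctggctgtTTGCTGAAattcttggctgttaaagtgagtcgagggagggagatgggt

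The Etv6 start lay under a region (chr6:134035518-134036141) called in 5 of 6 libraries. Its summit pileup, the number of fragments stacked over the highest point, was 44 and 25 in DC, 23 and 22 in DE, and 35 in WT replicate 2, with no call in WT replicate 1. Flanking regions 262 bp before and 794 bp after that start were called in all 6 libraries. The second Elf1 start lay under a region called in 3 libraries, with 9 fragments in DC replicate 2, 13 in DE replicate 1 and 15 in WT replicate 1, so no genotype had it in both libraries. The first Elf1 start (base 79481194) lay under a region called in DC replicate 1 alone, with 10 fragments, and a region 292 bp away was called in all 6 libraries. At the uppermost Erg start, the nearest region lay 804 bp away and was called in DE replicate 2 alone, with 4 fragments. The lowermost Erg start (base 95459348) lay 119 bp from a region with 13 fragments in DC replicate 1, 4 in DE replicate 2, and 12 and 12 in WT. The Ets2 start lay 264 bp from a region called in replicate 2 alone of each genotype, with 8 fragments in DC, 8 in DE and 19 in WT. Of the 7 promoters (300 bases each, both strands), 2 held TTGCNNAA, both of Erg, whereas 10.8% of 32817 RefSeq promoters held it. None of the 7 held the C/EBP palindrome TTGCGCAA or the ETS motifs CCGGAAGT or AGGAAGT, which 0.183%, 3.89% and 9.35% of all promoters held. The Etv6 promoter, which was occupied, held no match to TTGCNNAA. A match is a description of letters and not of a bound site.

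The libraries differed in their number of calls. The deposited lists held 169943 and 50221 peaks in DC, 52474 and 57441 in DE, and 82080 and 56940 in WT. DC replicate 1 stood apart, with calls in 167715 of the 259446 regions of the union. At the 6 genes 186 regions were called in a single library (55.9%, against 76.7% of the union), 91 of them in DC replicate 1 alone. The matching share of DC replicate 1 over the union was not computed, so the 91 are a description only. The median peak pileup over the 23480 regions called in all 6 libraries was 58 and 24 fragments in DC, 42 and 32 in DE, and 34 and 34 in WT. Over these regions, each library's log2 pileup was compared with the region's mean log2 pileup of the 6 libraries. Pileups were divided by a factor set by the median of these differences (scaled pileup). Total read numbers are not in the lists, so depth is unknown. A region without a call is not a region at 0, because the smallest pileup called in a library was 4 to 7 fragments.

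The 6 genes were occupied in every library, with 223 and 105 regions called in DC, 104 and 124 in DE, and 131 and 116 in WT. These were 0.133% and 0.216% of the regions called in the DC libraries, 0.203% and 0.222% in DE, and 0.163% and 0.209% in WT. The share averaged 0.175% ± 0.0589 in DC, 0.212% ± 0.0136 in DE and 0.186% ± 0.0323 in WT (SD, n = 2 each). The groups overlapped, DC differed from WT by -0.0116 percentage points (p = 1.00) and DE from WT by 0.0262 (p = 0.667) in exact two-sided permutation tests. The smallest p that 2 libraries against 2 can give is 0.333. Without DC replicate 1 the DC difference was 0.0301 percentage points, and without WT replicate 2 it was 0.0113.

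**Figure D1:**
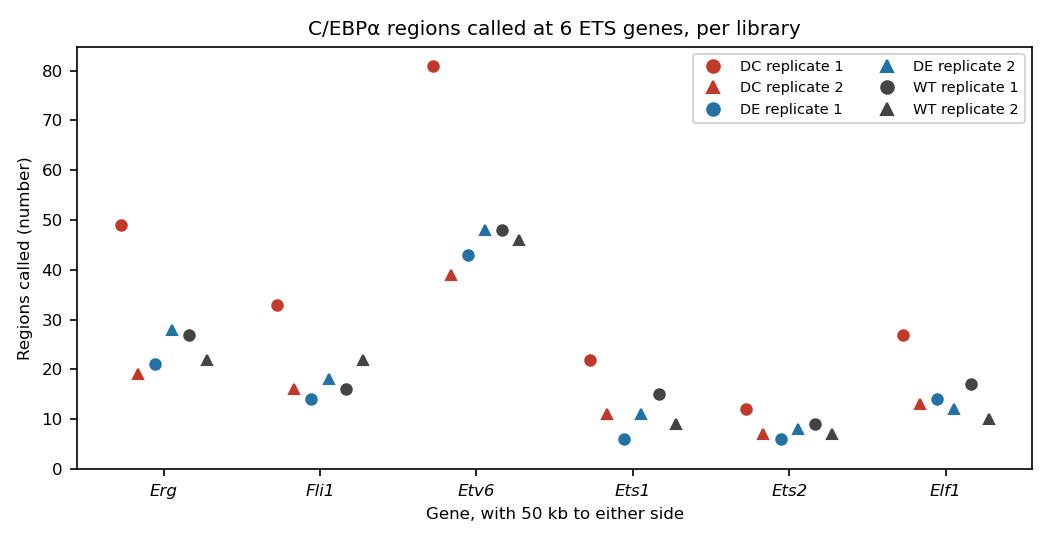
Number of regions called inside or within 50 kb of each ETS gene (vertical axis) in each library, with DC in red, DE in blue and WT in grey, circles for replicate 1 and triangles for replicate 2. DC replicate 1 is highest at every gene, and at Etv6 it had 81 regions.

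Of the 333 regions, 233 lay inside one of the 6 genes, and 52 were called in all 6 libraries (15.6%, against 9.05% of the union). Regions called in both libraries of a genotype numbered 86 in DC, 77 in DE and 70 in WT. Of the 70 in WT, 58 lay inside one of the 6 genes (82.9%). The Fli1 and Ets1 windows adjoin on chromosome 9 and shared 3 regions, none of them called in both libraries of WT. At the edge of the rule, the outermost Elf1 region, 39.37 kb from the gene, was called in all 6 libraries. The nearest region past the Erg edge, at 50.02 kb, was called in DC replicate 1 alone.

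Etv6 (chr6:134035700-134270158) was the most densely occupied of the 6. It had 81 and 39 regions in DC, 43 and 48 in DE, and 48 and 46 in WT. Regions called in both libraries numbered 35 in DC, 34 in DE and 30 in WT, and 23 were called in all 6 libraries. Only 5 protein-coding genes, Etv6 included, had 30 or more regions called in both WT libraries. Per 100 kb of gene and flanks, Etv6 had 8.97 such regions, more than 96.3% of protein-coding genes, whose median was 1.79. With each gene body cut into 3 equal segments by coordinate, the Etv6 regions were spread over the gene, with 13 in the lower segment, 13 in the middle segment and 4 in the upper segment in DC, 11, 14 and 4 in DE, and 9, 13 and 3 in WT.

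Erg (chr16:95359169-95586600) was occupied mainly inside the gene body, away from its uppermost start. Erg is read from the minus strand, and no region called in both libraries of any genotype lay in its upper segment, which holds that start. The lower segment held 9 such regions in DC, 7 in DE and 4 in WT, and the middle segment held 3 in DC, 5 in DE and 5 in WT. Erg had 49 and 19 regions called in DC, 21 and 28 in DE, and 27 and 22 in WT. Beyond its upper end, the 5′ side, a region called in all 4 DC and DE libraries and in WT replicate 1 lay 25.4 kb away. The WT density was 3.05 per 100 kb, higher than in 66.5% of genes.

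Fli1 (chr9:32422204-32543432) had its regions at the opposite side. Its upper segment held 9 regions called in both libraries in DC, 7 in DE and 9 in WT. Its middle segment held 2 in each genotype, and its lower segment held none. Ets1 (chr9:32636241-32757820), its neighbour, had 5 in its lower segment in each genotype, and the nearest to either gene end lay 16.1 kb inside. The WT densities were 5.42 per 100 kb at Fli1 and 2.71 at Ets1, above those of 84.7% and 61.7% of genes.

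Ets2 (chr16:95702407-95721049) is short, and 24 of its 26 regions lay outside it. It had 3 regions called in both DC libraries, 4 in both DE libraries and 3 in both WT libraries. Elf1 (chr14:79481174-79582491) had 11 in DC, 9 in DE and 9 in WT, with 6 of the 9 in WT inside the gene. The WT densities were 4.47 per 100 kb at Elf1 and 2.53 at Ets2, above those of 78.6% and 59.3% of genes.

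**Figure D2:**
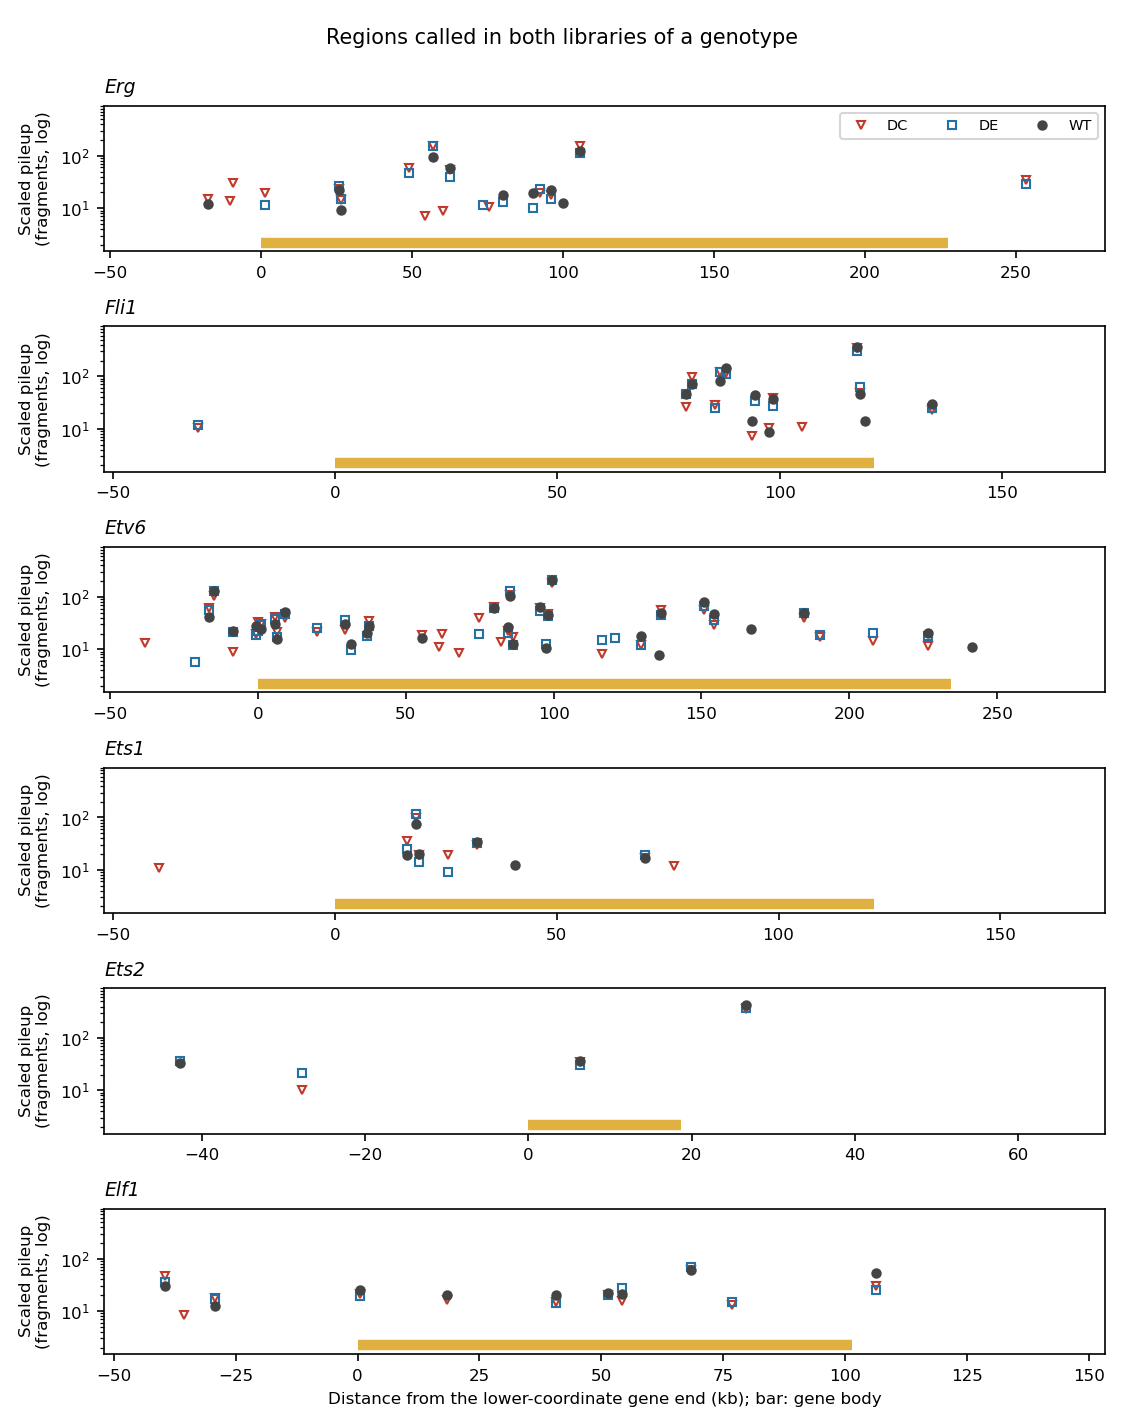
Mean scaled pileup (fragments, log axis) of each region called in both libraries of a genotype, against its distance from the lower-coordinate end of the gene in kb; the bar is the gene body, open red triangles are DC, open blue squares DE and filled grey circles WT. Fli1 regions gather in the upper segment, where WT had 9, and Erg has none in its upper segment.

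The region with the highest mean scaled pileup was the same in the 3 genotypes at 5 genes, Erg being the exception. At Ets2 it lay 7.58 kb beyond the upper gene end (chr16:95728624-95729398), where the pileup was 564 and 249 fragments in DC, 459 and 333 in DE, and 483 and 358 in WT. Scaled, these were 348 and 382 in DC, 384 and 377 in DE, and 487 and 376 in WT, so both variants overlapped WT. It ranked 176 and 26 by −log10 q in the DC lists, 126 and 32 in the DE lists, and 56 and 22 in the WT lists.

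At Fli1 the highest region (chr9:32539167-32539851) lay inside the gene, 3.92 kb from its upper end by its midpoint. The scaled pileup was 426 and 268 in DC, 385 and 233 in DE, and 506 and 228 in WT. Replicate 1 was the higher in each genotype, and the genotypes overlapped. The authors' fold enrichment there was 327 and 36.0 in DC, 182 and 36.3 in DE, and 215 and 20.0 in WT. The local background behind those folds was 1.11 and 3.88 fragments in DC, 1.53 and 4.71 in DE, and 1.33 and 9.92 in WT, so the background was higher in replicate 2 of each genotype.

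At Etv6 the highest region (chr6:134134783-134135378) lay 99.4 kb inside the gene. Its scaled pileup was 210 and 158 in DC, 234 and 181 in DE, and 272 and 142 in WT, and the genotypes overlapped. At Erg the best-ranked WT region (chr16:95464494-95465097) had 149 and 155 in DC, 113 and 111 in DE, and 149 and 103 in WT. At Ets1 the highest region (chr9:32654253-32654760) had 91.4 and 107 in DC, 122 and 113 in DE, and 87.8 and 64.1 in WT. At Elf1 it (chr14:79549239-79550085) had 54.4 and 64.4 in DC, 68.6 and 70.2 in DE, and 78.7 and 39.9 in WT.

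Ordered by mean scaled pileup in WT, the highest regions ran Ets2 at 432 ± 78.7, Fli1 at 367 ± 196, Etv6 at 207 ± 92.4, Erg at 126 ± 32.8, Ets1 at 75.9 ± 16.8 and Elf1 at 59.3 ± 27.4 (SD, n = 2). Of the neighbours in that order, the values of Erg and Ets1 did not overlap, and those of every other adjoining pair did. In DC the means were 365 ± 23.7 for Ets2, 347 ± 112 for Fli1, 184 ± 36.8 for Etv6, 152 ± 2.92 for Erg, 99.4 ± 11.3 for Ets1 and 59.4 ± 7.11 for Elf1. In DE they were 381 ± 4.80 for Ets2, 309 ± 107 for Fli1, 208 ± 37.5 for Etv6, 153 ± 27.9 for Erg, 118 ± 6.27 for Ets1 and 69.4 ± 1.15 for Elf1. The order of the genes was thus the same in the 3 genotypes. At Erg the value given for DC and DE is that of another region than in WT, described next.

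**Figure D3:**
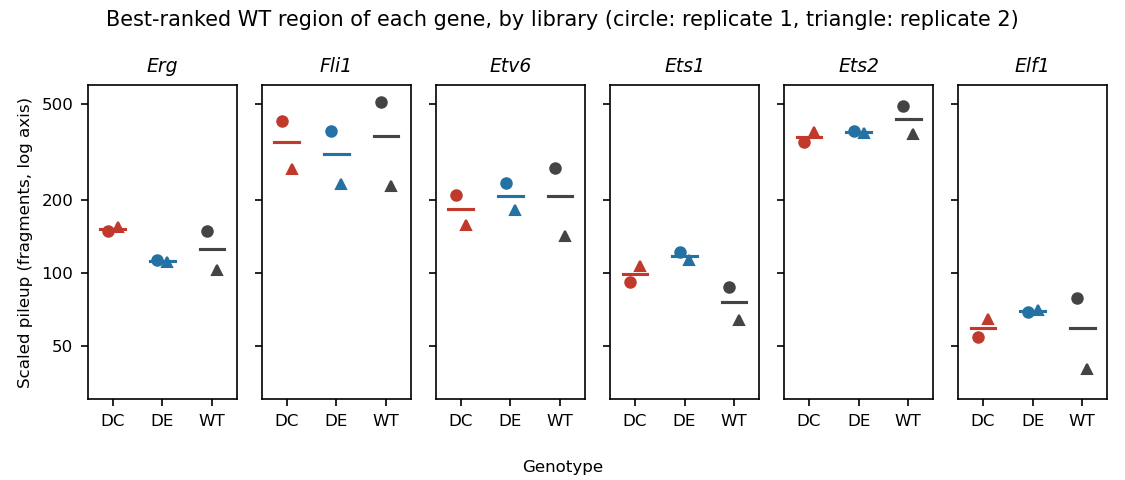
Scaled pileup (fragments, log axis) at the best-ranked WT region of each gene for DC, DE and WT; circles are replicate 1, triangles replicate 2 and lines the means of 2 libraries. The Fli1 region shows replicate 1 above replicate 2 in each genotype, with 506 and 228 in WT.

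A second Erg region, 56.9 kb from the lower gene end (chr16:95415820-95416395), was higher in DC and in DE than in WT in each batch. Its pileup was 250 and 98 in DC, 207 and 118 in DE, and 101 and 82 in WT. Scaled, it was 154 and 150 in DC, 173 and 134 in DE, and 102 and 86.1 in WT, so neither variant overlapped WT. In DE its mean was 153 against 112 at the best-ranked WT region, whereas in DC the means of the pair differed by less than the spread between libraries. The within-batch ratio of DC to WT was 1.52 (95% exact conditional binomial interval 1.20 to 1.93) in batch 1 and 1.74 (1.29 to 2.37) in batch 2. The ratio of DE to WT was 1.70 (1.33 to 2.18) and 1.55 (1.16 to 2.08); both comparisons use the same WT libraries, and the intervals cover counting error only. For DC a ratio as high was found at 12.6% of the 37017 regions with a ratio in batch 1 and 11.1% of 31823 in batch 2. For DE it was found at 8.69% of 30765 and 11.5% of 35800. The log2 difference was 0.70 ± 0.29 (SE) in DC and 0.70 ± 0.29 in DE, which did not pass limma with Benjamini-Hochberg adjustment (adjusted p = 0.584 for DC and 0.992 for DE). With the batch as a term, the SE was 0.23 in both and limma's adjusted p was 0.0564 for DC and 0.104 for DE. In the DC comparison limma's adjusted p with the batch term was 0.0456 without DE replicate 1, 0.0235 without DE replicate 2 and 0.0413 in the fit on the 4 DC and WT libraries. It was 0.311 without DC replicate 1, 0.609 without DC replicate 2, 0.189 without WT replicate 1, 0.317 without WT replicate 2, 0.139 with scaling by the background floor and 0.140 on fold enrichment.

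Erg regions called in 5 of the 6 libraries could not be tested in limma and are described in full. There were 7, of which 2 lacked a DC call (28.6%), 1 a DE call (14.3%) and 4 a WT call (57.1%). Over the union, 30.0% of regions called in 5 libraries lacked a DC call, 24.5% a DE call and 45.5% a WT call. A missing WT call was not particular to Erg. It was found at 12 of 20 such regions over all 6 genes (60.0%) and at 5 of 8 at Etv6 (62.5%). Of the 4 at Erg that lacked a WT call, the region 25.4 kb beyond the upper gene end (chr16:95612005-95612639) had scaled pileups at 22.9 and 47.5 in DC, and 21.7 and 36.2 in DE, against 8.07 in WT replicate 1. A region inside the gene (chr16:95408134-95408306) had 48.8 and 65.9 in DC and 41.0 and 52.1 in DE, against 20.2 in WT replicate 1. In both of these every DC and DE value lay above the single WT value. These regions were picked for a missing WT call, which favours low WT values in advance, so no conclusion is drawn. The region just inside the lower end (chr16:95360292-95360853) had 22.9 and 16.9 in DC and 11.7 and 11.3 in DE, against 8.40 in WT replicate 2. A region further in (chr16:95451228-95451501) had 13.0 and 26.1 in DC and 17.6 and 29.4 in DE, against 14.7 in WT replicate 2, so the DC values lay on both sides of it. Of the 2 that lacked a DC call, 1 (chr16:95449062-95449617) had 14.8 in DC replicate 1 and 6.69 and 13.6 in DE, against 19.2 and 20.0 in WT. The other (chr16:95439078-95439476) had 16.1 in DC replicate 1 and 15.1 and 11.3 in DE, against 16.1 and 20.0 in WT. No DC or DE value lay above WT in this pair, which was likewise picked for a missing DC call. The region that lacked a DE call (chr16:95341530-95341760) had 10.5 and 19.9 in DC and 17.0 in DE replicate 2, against 10.1 and 13.7 in WT.

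At Ets1 the highest region, given above, had pileup ratios of DE to WT of 1.39 (1.06 to 1.84) in batch 1 and 1.77 (1.27 to 2.47) in batch 2. The authors' fold enrichment there was 16.9 and 41.2 in DE, against 23.0 and 12.9 in WT, so in batch 1 it ran the other way. The ratio of DC to WT was 1.04 (0.794 to 1.37) in batch 1 and 1.68 (1.17 to 2.40) in batch 2. The log2 difference was 0.40 ± 0.31 in DC and 0.65 ± 0.31 in DE (SE), and neither passed limma without the batch term (adjusted p = 0.850 for DC). With the batch term the SE was 0.25 in both, and limma's adjusted p was 0.430 for DC and 0.206 for DE. On fold enrichment the DE difference was 0.28, and without WT replicate 2 the differences were 0.18 in DC and 0.42 in DE.

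At Elf1 the second-ranked WT region lay 4.56 kb beyond the upper gene end, inside Sugt1 (chr14:79587052-79587806). Its scaled pileup was 30.3 and 29.1 in DC and 25.1 and 26.0 in DE, against 53.5 and 50.4 in WT, so both variants lay below WT. The log2 difference was -0.81 ± 0.37 in DC and -1.02 ± 0.37 in DE, and limma's adjusted p was 0.624 for DC and 0.972 for DE, or 0.183 and 0.118 with the batch term. Scaled by each library's background floor instead, the DC difference was 0.05 and changed sign, and the DE difference was -0.47. That scaling moved the median of all regions by 0.838 in DC and 0.548 in DE on the log2 scale.

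At Etv6 a region 8.16 kb before the gene, inside the gene model Gm46977 (chr6:134027100-134027536), was lower in DC. Its pileup was 14 and 6 in DC, 21 and 23 in DE, and 20 and 23 in WT. Scaled, it was 8.65 and 9.20 in DC, 17.6 and 26.0 in DE, and 20.2 and 24.2 in WT, so DC lay below and DE overlapped WT. The ratio of DC to WT was 0.428 (0.200 to 0.892) in batch 1 and 0.381 (0.127 to 0.962) in batch 2. A ratio as low was found at 5.61% of the 37017 regions with a ratio in batch 1 and 1.11% of 31823 in batch 2. The ratio of DE to WT was 0.870 (0.449 to 1.69) and 1.08 (0.578 to 2.01). The log2 difference in DC was -1.31 ± 0.41 (SE), with limma's adjusted p at 0.407, or 0.0499 with the batch term. With the batch term limma's adjusted p was between 0.0559 and 0.442 without any 1 of the 6 libraries, 0.0816 in the fit on the 4 DC and WT libraries, 0.119 on fold enrichment, and 0.546 with scaling by the background floor, so none of these made the call. The background floor is a very low quantile of the local backgrounds at a library's peaks.

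**Figure D4:**
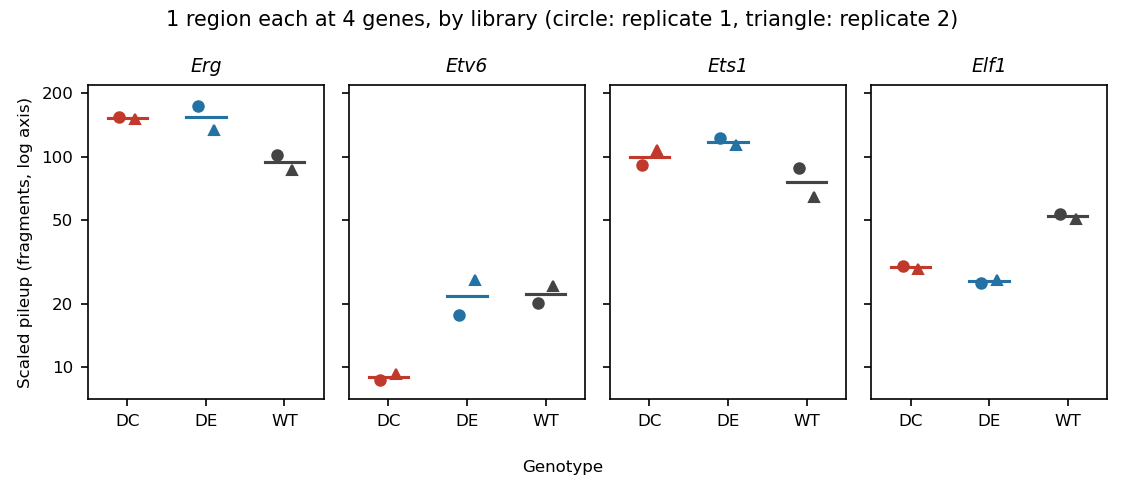
Scaled pileup (fragments, log axis) for DC, DE and WT at the second Erg region, the Etv6 region before the gene, the highest Ets1 region and the Elf1 region inside Sugt1; circles are replicate 1, triangles replicate 2 and lines means of 2 libraries. DC lies at 8.65 and 9.20 at the Etv6 region, and both variants lie below WT at the Elf1 region.

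Over the 52 regions called in all 6 libraries, scaled differences were small in the middle and ran in both directions at the edges. The median log2 difference was -0.02 in DC and -0.04 in DE against WT, and over all 23480 regions it was -0.0201 and -0.00401. Median scaling sets the latter near 0, so a shift common to all regions could not be seen. Scaled by the background floor, the medians of the 52 were 0.84 in DC and 0.51 in DE, against 0.838 and 0.548 over all regions. Under median scaling, differences ranged between -1.31 and 0.89 in DC, with 24 regions higher and 28 lower. In DE they ranged between -1.02 and 0.70, with 22 higher and 30 lower. By gene the median DC difference was 0.19 at Erg, 0.03 at Fli1, -0.11 at Etv6, 0.07 at Ets1, -0.17 at Ets2 and -0.34 at Elf1. The median DE difference was 0.04 at Erg, -0.08 at Fli1, -0.02 at Etv6, 0.17 at Ets1, -0.24 at Ets2 and -0.02 at Elf1. Both DC values lay above both WT values at 10 regions and below at 10 (19.2% each; 17.2% and 16.8% of all regions). Both DE values lay above at 7 (13.5%) and below at 8 (15.4%), where 16.1% of all regions did in each direction. The count below in DC fell mostly on Etv6, which held 7 of the 10 and also 23 of the 52 regions.

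Limma called 0 of the 52 regions in DC against WT, in DE against WT and in DC against DE, where the share of all 23480 regions called was also 0. At an unadjusted p under 0.05, 3 regions passed in DC against WT, 2 in DE against WT and 1 in DC against DE, where 7.99%, 4.87% and 2.37% of all regions did. With the batch as a term, limma called 0 higher and 1 lower in DC, the Etv6 region above, where 3.15% of all regions were called higher and 1.17% lower. In DE against WT it called 0, where 1.12% were called higher and 0.264% lower. In DC against DE it called 0, where 0.00852% were called higher and 0.0213% lower, and at an unadjusted p under 0.05 the batch term gave 10 regions in DC against WT, 4 in DE against WT and 3 in DC against DE, where 17.0%, 12.0% and 8.20% of all regions passed.

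**Figure D5:**
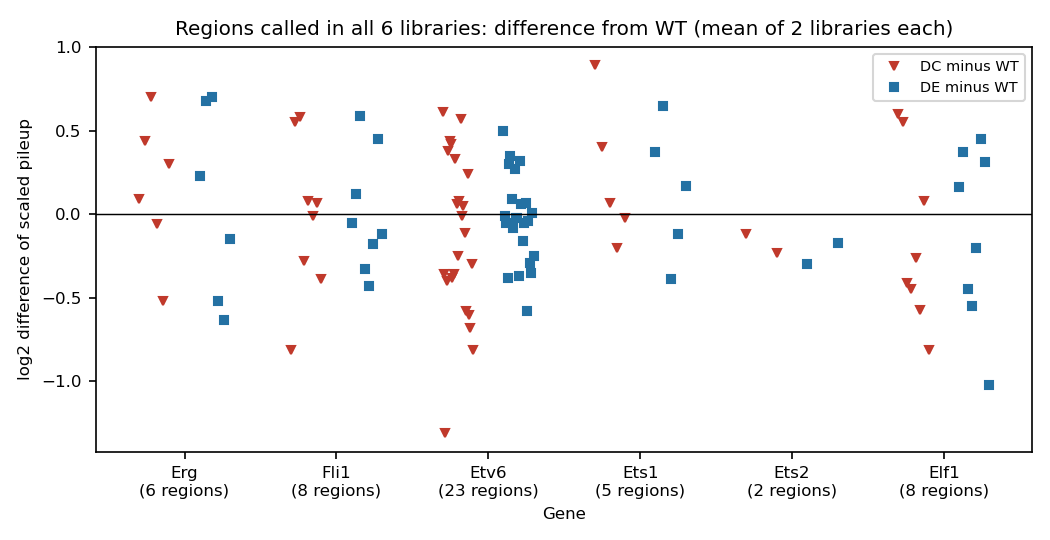
Log2 difference of scaled pileup from WT (vertical axis) for each of the 52 regions called in all 6 libraries, by gene, with DC minus WT as red triangles and DE minus WT as blue squares. Points lie on both sides of 0 at every gene except Ets2, whose 2 regions lie below it, and the lowest, at -1.31, is the Etv6 region in DC.

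Regions that both libraries of a genotype held and neither library of another held were few. Of the 86 regions of DC, 8 were called in neither WT library (9.30%, against 10.9% of all such regions), and of the 70 of WT, 4 were called in neither DC library (5.71%, against 3.23%). Of the 77 regions of DE, 5 were called in neither WT library (6.49%, against 6.55%), and of the 70 of WT, 5 in neither DE library (7.14%, against 5.28%). Between the variants, 8 of 86 DC regions were called in neither DE library (9.30%, against 7.31%) and 2 of 77 DE regions in neither DC library (2.60%, against 2.14%). The strongest lay inside Etv6 (chr6:134110269-134110648), with 56 and 28 fragments in DC and 12 and 25 in DE, and no call in WT. An Ets1 region (chr9:32661551-32661866) had 22 and 16 fragments in DC and 12 and 7 in DE, and no call in WT. An Etv6 region (chr6:134202261-134202479) had 27 and 21 in WT, with no call in DC and 7 fragments in DE replicate 2. Whether the peak number of DC replicate 1 plays a part in these calls was not tested.

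The other genes of the pathway were described from lists of 20 other ETS genes and of 5 partners of ERG and FLI1. Regions called in both libraries lay within 50 kb of 18 of the 20 other ETS genes in DC, 19 in DE and 18 in WT, and of all 5 partners in each genotype, where 75.8%, 74.3% and 73.5% of protein-coding genes had one. Fev, a factor of serotonin neurons, and Spdef, a factor of secretory epithelium, had none in WT. At the other ETS genes limma called 0 of 69 regions in each comparison without the batch term, with 3 in DC and 4 in DE at an unadjusted p under 0.05, and a median log2 difference of -0.00 in DC and 0.03 in DE. Of all regions, 7.99% passed at that p in DC and 4.87% in DE. With the batch term, 3 of the 69 were higher in DC and 1 in DE, where 3.15% and 1.12% of all regions were. They lay near Elf3 (log2 difference 1.48 ± 0.34 SE, limma adjusted p = 0.00315), Erf (0.86 ± 0.22, 0.00799) and Etv3 (1.39 ± 0.42, 0.0379) in DC, and inside Elf2 (0.91 ± 0.26, 0.0453) in DE. Of 42 regions at the partners, limma called 0 without the batch term, with 2 in DC and 2 in DE at an unadjusted p under 0.05. With the batch term it called 1 of the 42, against 3.15% of all regions called higher in DC. That region lay 21.2 kb from Lyl1 and was higher in DC (1.34 ± 0.40, adjusted p = 0.0342).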

How the data were processed

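C/EBPα CUT&RUN had been run on 6 libraries of 3 genotypes; 2 IgG libraries of WT cells were not analysed here. Per the submitters' processing notes, MACS2 2.2.9.1, Trimmomatic, Bowtie2, SAMtools and HOMER were used with mm10; their order and settings are not given in the sources used here. The deposited peak lists, which MACS2 made for the authors from each library alone, hold a score (10 times −log10 q), the fold enrichment at the summit as a ratio to local background, and −log10 p and −log10 q, with q of at most 0.1. Whether IgG served as control is not given in the sources used here.

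The lists were joined where peaks shared 1 bp, and all 259446 regions matched the authors' deposited merged list. Whole summit pileups and local backgrounds were solved from the fold and −log10 p, and 99.99% or more of the peaks of a library came out whole (tolerance 5%). Pileups were scaled by a library's median log2 deviation from the region means, over regions called in all 6 libraries (median scaling). They were compared on the log2 scale, with no pseudocount, in limma 3.58.1 (R 4.3.3, trended eBayes). The p-values were adjusted by Benjamini-Hochberg over 23480 regions. The batch is a label shared by same-numbered libraries; their deviations from genotype means correlated at r = 0.548 (DC with WT), 0.415 (DE with WT) and 0.384 (DC with DE). The recovery of pileups and the limma fit were each run on simulated data. The changes planted for limma were larger than any difference found at the 6 genes, so smaller ones were not tried. The text names, for each gene, the 3 regions ranked best in WT by the worse of both −log10 q ranks, those nearest a start (within 1 kb), those past the threshold, and differential calls with at least 10 fragments, as far as they bear on a comparison. The members and lists were chosen with earlier results of these data known. No genome sequence was used, so motifs around summits were not searched.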

Additional observations from a re-analysis of the deposited data

How the results depend on the processing

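Peak lists with q under 0.01, a stricter overlap for merging peaks, and windows of 10 kb or the gene alone kept the direction of each share and difference recomputed. With the replicate block (the batch term) the number of regions called in DC against WT was 1, the lower Etv6 region, and in the other comparisons 0. With q under 0.01 it was 1, lower. With the 4 DC and WT libraries, and without DE replicate 1 or 2, it was 1, but this was the higher second Erg region and the Etv6 region was lost; without any other library it was 0 (range 0 to 1). The block left the share differences at -0.0116 and 0.0262 percentage points. On leaving out a library the DC share difference ranged between -0.0532 and 0.0301, crossing 0 without DC replicate 1 (0.0301) or WT replicate 2 (0.0113).

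Scaling by the background floor, a very low quantile of the local backgrounds at a library's peaks, raised DC and DE relative to WT. The ratios at the second Erg region became 2.97 and 2.93 (DC) and 3.18 (DE, batch 2), and at the highest Ets1 region 2.04 and 2.81 (DC) and 3.62 (DE, batch 2). The Elf1 region inside Sugt1 reversed in DC (log2 0.05, batch 1 ratio 1.11) and in DE in batch 2 (1.06). At the Etv6 region before the gene the DE ratio in batch 2 became 2.21 and the DE log2 difference, -0.05, became 0.51. Under median scaling that difference ranged between -0.33 and 0.24 on leaving out a library. It was 0.24 without DE replicate 1 (0.15 with the batch term) and -0.33 without DE replicate 2 (-0.24 with it). It was -0.16 without WT replicate 1 (0.00 with the batch term) and 0.08 without WT replicate 2 (-0.08 with it). The cause was not tested. With 2 libraries a genotype and unknown depth, small differences were not detectable.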
